A study of Mus musculus with 6 samples.

Results

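Spp1, Gpnmb, Cst7, Cd9, Cd63, Lgals3 and Capg are genes of the disease-associated microglia profile that encode secreted proteins, tetraspanins and proteins of the endolysosome and the actin cytoskeleton, outside the lipid, cathepsin and receptor genes of that profile. They were taken by symbol from the deposited tables, where all 7 were found among the 41079 genes listed. RNA-seq was performed on 3 control and 3 optimized cultures of primary microglia. The cells came from the brains of C57Bl/6N neonates of both sexes at postnatal day 1 to 3, were expanded in mixed flasks with L-929 conditioned medium and were collected by shaking, in both groups alike. Per the study's methods, the mixed flasks were kept in serum-containing medium for weeks before harvest. All wells were also seeded in that medium briefly before it was replaced. Control cultures were then kept in serum-free DMEM/F12. Optimized cultures received human TGFbeta, human IL34 and CX3CL1 at 100 ng/mL each. According to the study's methods they also had cholesterol and insulin-transferrin-selenium on a collagen IV coating, which the sample labels do not name. The supplements were given together, so the effects of single components cannot be told apart. The study describes the libraries of a condition as biological replicates. Cells are pooled from several pups in this procedure and the labels give only a replicate number, so the p-values measure the spread between these cultures and not between animals.

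Disease-associated microglia are a state described around amyloid plaques, in demyelinated tissue and in ageing brain, in which homeostatic genes fall and a set of phagocytic, lysosomal and lipid genes rises, in part through the receptor TREM2. Spp1 encodes osteopontin, a secreted glycoprotein that binds integrins and CD44, and Gpnmb encodes a transmembrane glycoprotein of endolysosomes whose ectodomain can be shed. Cst7 encodes cystatin F, an inhibitor of lysosomal cysteine proteases. Cd9 and Cd63 encode tetraspanins of the cell surface and of late endosomes and exosomes, Lgals3 encodes galectin-3, a secreted and cytosolic lectin that binds β-galactosides, and Capg encodes an actin filament capping protein. Microglia also carry several of these transcripts during early postnatal development and after removal from the brain.

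The 7 genes lie on chromosomes 2, 5, 6, 10 and 14 of GRCm39, the build to which the reads had been mapped. In GENCODE M39, Spp1 spans chr5:104582165-104589235 on the plus strand with 7 exons in its canonical transcript, and Gpnmb spans chr6:49013426-49047863 on the plus strand with 11 exons. Cd9 spans chr6:125437210-125471778 on the minus strand, Cd63 chr10:128731528-128748709, Lgals3 chr14:47605208-47623624, Capg chr6:72514955-72539970 and Cst7 chr2:150412284-150420864, all on the plus strand apart from Cd9. Exons of Cst7 and Lgals3 did not overlap those of another annotated gene. The other 5 overlapped predicted genes only, and of these only Gm26728, which overlaps Cd9, was listed in the count table, with at most 14 counts in a library.

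The promoters of Spp1, Gpnmb and Cd9, the members with the largest increases, and of Lgals3, the member that fell, are shown to set their sequences beside the values given further on. Each run starts 250 bases before the transcript start in RefSeq and ends 25 bases after it, 5′ to 3′ on the gene's strand, placed on GRCm39 by exact match. Capitals mark matches, on either strand, to 5 motifs that were searched over the 300 bases of each RefSeq window. Sites of the AP-1 family were searched as TGANTCA, and those of the lineage factor PU.1 as GAGGAAGT. The E-box of basic helix-loop-helix factors was searched as CACGTG. For the M-box of the MiT family the letters were CATGTG, and for the SMAD-binding CAGA box they were CAGACA.
Spp1, chr5:104582727-104583001: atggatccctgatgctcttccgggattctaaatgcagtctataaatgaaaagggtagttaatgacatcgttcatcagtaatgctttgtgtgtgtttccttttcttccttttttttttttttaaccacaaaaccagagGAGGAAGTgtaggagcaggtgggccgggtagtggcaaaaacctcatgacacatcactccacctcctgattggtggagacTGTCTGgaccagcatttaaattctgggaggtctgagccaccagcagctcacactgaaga
Gpnmb, chr6:49013202-49013476: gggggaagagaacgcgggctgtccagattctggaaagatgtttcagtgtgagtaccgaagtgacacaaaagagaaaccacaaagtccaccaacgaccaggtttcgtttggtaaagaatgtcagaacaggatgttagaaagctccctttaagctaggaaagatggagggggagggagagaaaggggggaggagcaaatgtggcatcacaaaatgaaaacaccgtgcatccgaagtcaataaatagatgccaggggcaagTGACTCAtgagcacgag
Cd9, chr6:125471699-125471973, minus strand: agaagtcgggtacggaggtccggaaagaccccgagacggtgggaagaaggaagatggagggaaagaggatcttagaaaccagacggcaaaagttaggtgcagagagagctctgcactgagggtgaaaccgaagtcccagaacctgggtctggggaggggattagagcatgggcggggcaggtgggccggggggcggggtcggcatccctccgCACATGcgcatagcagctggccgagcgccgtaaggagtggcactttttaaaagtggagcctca
Lgals3, chr14:47611067-47611341: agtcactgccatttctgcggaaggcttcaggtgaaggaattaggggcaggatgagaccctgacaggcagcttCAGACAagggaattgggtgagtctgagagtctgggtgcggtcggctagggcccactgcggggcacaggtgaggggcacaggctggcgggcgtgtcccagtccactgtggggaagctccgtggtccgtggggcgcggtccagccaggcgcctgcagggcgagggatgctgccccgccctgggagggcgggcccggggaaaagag

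The Spp1 promoter held a PU.1 match starting at position -113 and a CAGA box match at position -34 relative to the transcript start, and a second RefSeq start of Spp1 had no match. Gpnmb had an AP-1 match at position 9, inside the transcribed part, and Cst7 had one at position -6. In Cd9 an M-box match started at position -38, and in Lgals3 a CAGA box match started at position -178. The windows of Cd63 and Capg held none of the 5 motifs. The marked matches did not overlap each other. Among all 32851 RefSeq windows of the same length, 7.81% held the AP-1 letters, 7.15% the E-box, 14.2% the M-box, 21.0% the CAGA box and 3.20% the PU.1 letters. A match describes the letters only and is not a measured binding site, and a window without a match does not bear on the factor.

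The count totals lay between 20628148 and 27261839 per library. Expression is given as CPM (counts scaled to a common library size) after scaling with edgeR's TMM factors, and for comparisons between genes as the deposited FPKM values, which are per length. Of the 14618 genes with enough counts to test, 2142 (14.7%) were higher and 2218 (15.2%) were lower in optimized cultures with an adjusted p-value below 0.05 by edgeR's quasi-likelihood test (Benjamini-Hochberg). The median log2 fold change of all genes tested was 0.01 with TMM and -0.12 with library size alone, where 32.3% in place of 49.1% of the called genes were higher. The summed CPM of 10 microglia markers was 6057 to 6144 in control and 11470 to 13270 in optimized libraries, against at most 6.34 for 6 neuron markers and 36.2 for 6 astrocyte markers. Oligodendrocyte markers summed to 135 to 151 CPM in control and 164 to 202 CPM in optimized libraries, and border-associated macrophage markers to 805 to 834 and 741 to 861 CPM. Within the latter sum the genes went opposite ways, as Mrc1 fell from 330 to 62.7 CPM (log2 fold change -2.40) while F13a1, Siglec1 and Pf4 were called higher (1.60, 0.59 and 0.53). Fibroblast markers summed to 34.5 to 48.8 CPM in control libraries and to 48.5, 31.0 and 150.7 CPM in optimized libraries 1 to 3. The 5 summed monocyte markers lay between 433 and 536 CPM in control and between 2716 and 3803 CPM in optimized libraries, nearly all from Fn1, while Chil3 was at 0 in every library and Ly6c2, Ccr2 and Plac8 each stayed under 3 CPM. In bulk RNA, fewer cells of a type and less RNA per cell cannot be told apart.

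All 7 members had enough counts to test, and they went in different directions. Spp1, Cd9, Gpnmb and Cd63 were higher in optimized cultures, Lgals3 was lower, and Cst7 and Capg did not pass the threshold of 0.05. Thus 4 of 7 were called higher, against 14.7% of all genes tested, and 1 of 7 was called lower, against 15.2%. For 4 members every optimized library was above every control library, which held for 21.4% of all genes tested. For 2, Lgals3 and Capg, every optimized library was below every control library, which held for 22.5%, and the libraries of Cst7 overlapped. The median log2 fold change of the 7 genes was 0.70, beside 0.01 over all genes tested, with a range from -1.04 to 1.74.

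**Figure D1:**
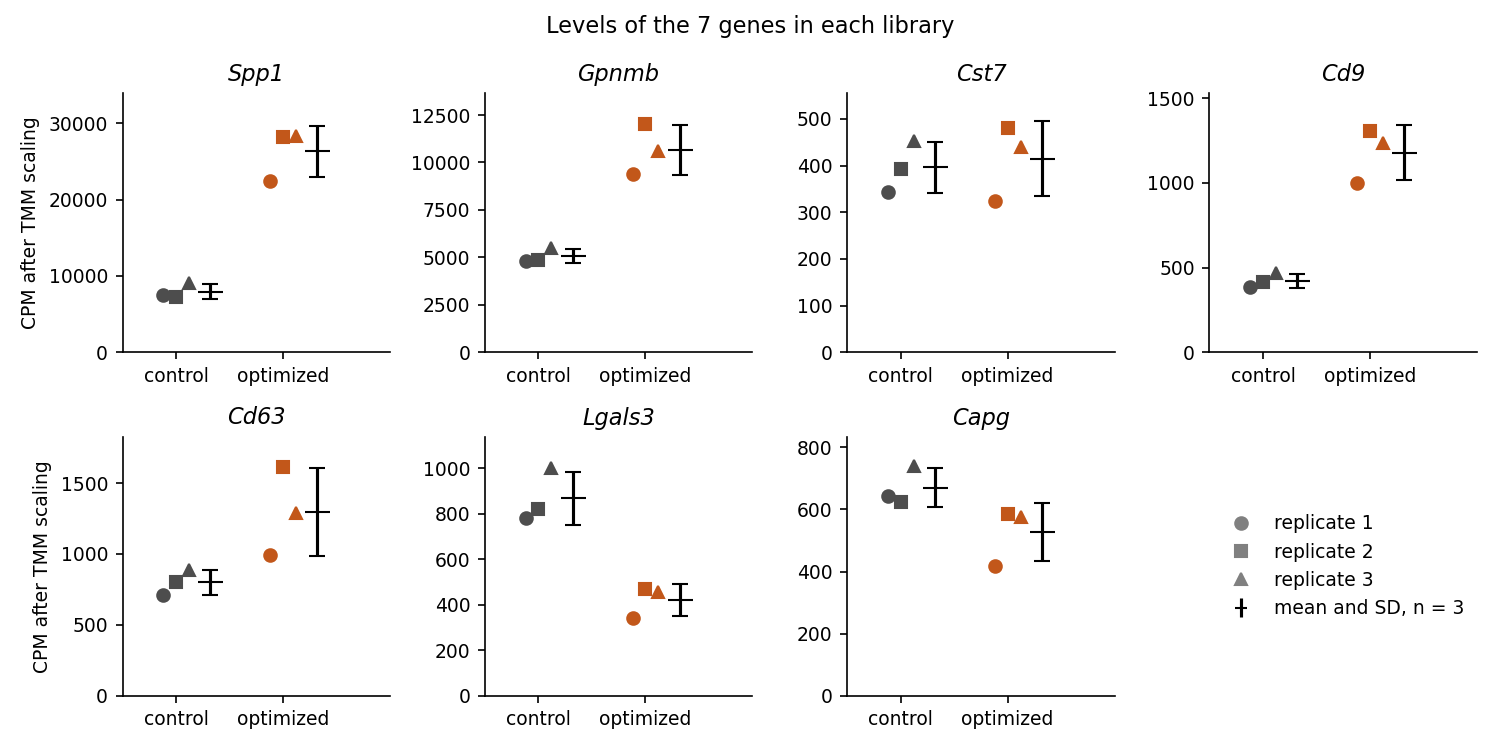
CPM after TMM scaling of each of the 7 genes in the 3 control (grey) and 3 optimized (orange) libraries, with symbols for replicate numbers and a bar for the mean and SD (n = 3). Optimized libraries lie above all control libraries for Spp1, Gpnmb, Cd9 and Cd63, below them for Lgals3 and Capg, and among them for Cst7.

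Spp1 was the most abundant of the 7 genes and changed the most. Osteopontin transcripts numbered 171608, 176069 and 246130 counts in control replicates 1 to 3, against 474372, 663660 and 585171 in optimized replicates 1 to 3. After scaling this was 7503, 7181 and 9010 CPM in control and 22460, 28260 and 28310 CPM in optimized libraries. The lowest optimized library was well above the highest control library. The mean rose from 7898 ± 976 to 26340 ± 3360 CPM (± SD, n = 3 per group), a 3.33-fold increase and a log2 fold change of 1.74 (SE 0.15, 95% interval 1.40 to 2.08). The adjusted p-value was 1.8e-05 (edgeR's quasi-likelihood test). The log2 fold change ranked 360th of the 14618 genes tested. In FPKM, Spp1 was already among the 9 most abundant transcripts of every control library, and it ranked 4th in each optimized library.

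Gpnmb, the second most abundant member, encodes the glycoprotein NMB. It had 4823, 4854 and 5495 CPM in control and 9377, 12030 and 10580 CPM in optimized libraries, with no overlap. Its mean increased 2.11-fold from 5057 ± 379 to 10660 ± 1331 CPM (± SD, n = 3 per group), and the log2 fold change was 1.08 (SE 0.13, 95% interval 0.78 to 1.37, adjusted p = 0.00017 by edgeR's quasi-likelihood test). Its rank by FPKM among all genes listed moved from 34, 35 and 35 in control to 16, 18 and 18 in optimized libraries. The ratio of Spp1 to Gpnmb in FPKM within a library was 3.59, 3.41 and 3.78 in control, against 5.52, 5.41 and 6.17 in optimized libraries. The geometric mean of the ratio (from mean log2 values) differed 1.59-fold, with p = 0.1 by exact permutation (two-sided), and 3 libraries against 3 cannot give a lower value.

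Both tetraspanins rose, Cd9 with the larger log2 fold change. Cd9, a surface tetraspanin that associates with integrins, had 385, 413 and 465 CPM in control and 997, 1305 and 1234 CPM in optimized libraries. All optimized values were more than those of any control library. The mean went up 2.80-fold, from 421 ± 40.7 to 1179 ± 162 CPM (± SD, n = 3 per group), with a log2 fold change of 1.49 (SE 0.13, 95% interval 1.20 to 1.77, adjusted p = 1.5e-05 by edgeR's quasi-likelihood test). Cd63, a tetraspanin of late endosomes and a common exosome marker, had 710, 802 and 888 CPM in control and 993, 1614 and 1291 CPM in optimized libraries. Here optimized replicate 1 lay close to control replicate 3, and the groups did not overlap. The mean of Cd63 went from 800 ± 88.9 to 1299 ± 311 CPM (± SD, n = 3 per group), a 1.62-fold increase and a log2 fold change of 0.70 (SE 0.17, 95% interval 0.32 to 1.07, adjusted p = 0.010 by edgeR's quasi-likelihood test). The call depended on single control libraries, as the adjusted p-value was 0.057 without control replicate 1 and 0.055 without control replicate 2, with log2 fold changes of 0.62 and 0.70.

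The order of both tetraspanins differed between the conditions in most libraries. Per length, Cd9 stood at 0.629, 0.597 and 0.608 times the FPKM value of Cd63 in the control libraries and at 1.17, 0.939 and 1.11 times it under optimized conditions. Cd9 was therefore below Cd63 in every control library and above it in optimized replicates 1 and 3. The geometric mean ratio of the optimized libraries was 1.74 times that of the control libraries (p = 0.1 by exact permutation, two-sided).

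Lgals3 was the only member called lower. Galectin-3 transcripts were measured at 783, 822 and 1001 CPM in control and 340, 470 and 454 CPM in optimized libraries, and every optimized library was below every control library. The mean fell from 869 ± 116 to 422 ± 71.0 CPM (± SD, n = 3 per group), which is 0.485 times the control level and a log2 fold change of -1.04 (SE 0.14, 95% interval -1.37 to -0.72). The adjusted p-value was 0.00039 by edgeR's quasi-likelihood test. By FPKM, Lgals3 ranked 84th, 82nd and 70th in control and 178th, 178th and 161st in optimized replicates 1 to 3. Relative to Lgals3 in the same library, Spp1 had 8.12, 7.41 and 7.63 times its FPKM value in control and 56.0, 51.0 and 52.8 times in optimized cultures, and Gpnmb had 2.26, 2.17 and 2.02 times in control and 10.1, 9.42 and 8.56 times in optimized cultures. Both ratios had p = 0.1 by exact permutation (two-sided).

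Capg and Cst7 were not called. Capg, which caps the barbed ends of actin filaments, had 642, 625 and 742 CPM in control and 419, 587 and 574 CPM in optimized libraries. Every optimized library was below every control library, with optimized replicate 2 close to control replicate 2. The means were 670 ± 62.8 and 527 ± 93.5 CPM (± SD, n = 3 per group), with a log2 fold change of -0.35 (SE 0.14, 95% interval -0.65 to -0.04, adjusted p = 0.088 by edgeR's quasi-likelihood test). This gene lay near the threshold, since with library size alone its log2 fold change was -0.48 with an adjusted p-value of 0.0073, and without optimized replicate 2 it was -0.44 with an adjusted p-value of 0.038.

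Cst7 had 343, 393 and 453 CPM in control and 324, 480 and 440 CPM in optimized libraries, so that the lowest and the highest value both came from optimized cultures. The means were 397 ± 54.8 and 415 ± 80.8 CPM (± SD, n = 3 per group). Its log2 fold change was 0.06 (SE 0.15, adjusted p = 0.80 by edgeR's quasi-likelihood test), and -0.07 with library size alone, so no direction can be given. The 95% interval from -0.28 to 0.41 leaves room for changes of that size in either direction. Relative to Cst7 in the same library, the FPKM value of Capg was 0.934, 0.794 and 0.817 in control and 0.645, 0.610 and 0.652 in optimized libraries, without overlap (p = 0.1 by exact permutation, two-sided).

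**Figure D2:**
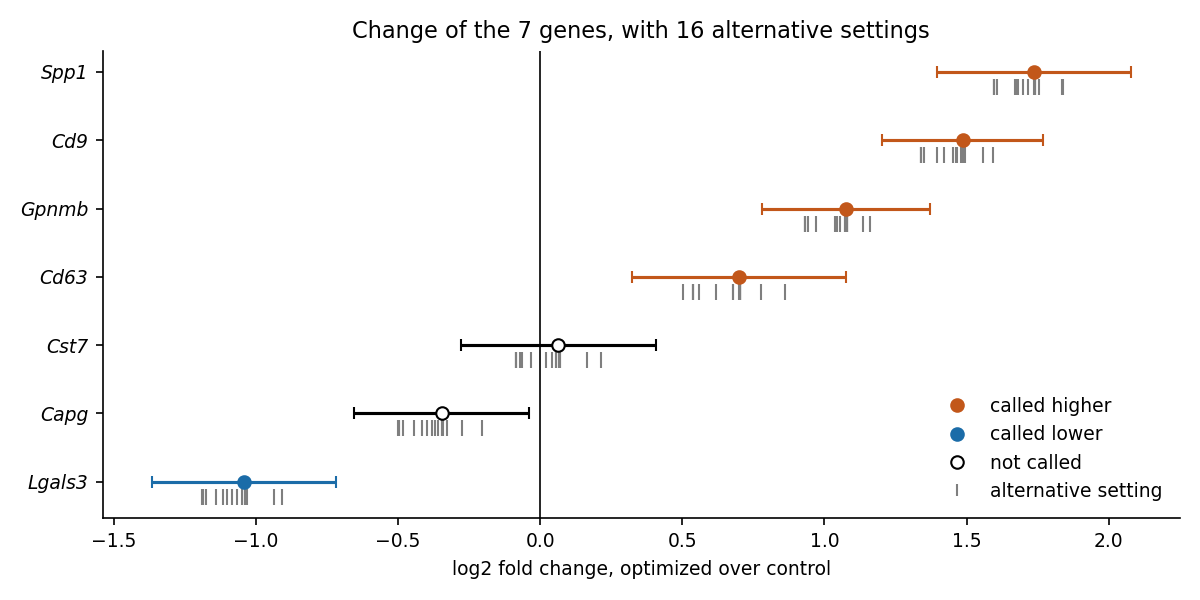
Log2 fold change of the 7 genes, optimized over control, with its 95% interval (filled points passed an adjusted p-value of 0.05, open points did not) and, as grey ticks, the values under 16 alternative settings. Spp1, Cd9, Gpnmb and Cd63 stayed above 0 and Lgals3 and Capg below 0 in all 16, while Cst7 had values on both sides of 0.

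The members shared a pattern between replicates of one condition. Optimized replicate 1 was the lowest optimized library and control replicate 3 the highest control library for each of the 7 genes. Optimized replicate 1 also stood apart over all genes, with a chi-square per degree of freedom of 78.5 and 45.9 against optimized replicates 2 and 3, which differed from each other by 14.4. Tspan1, Tspan8 and Plac8, which had 0 or 1 count in the other 5 libraries, had 32, 73 and 54 counts in optimized replicate 1. Without that library the same 4 members were called higher and Lgals3 lower, and the median of the 7 log2 fold changes was 0.86. Without optimized replicate 3, which had the highest fibroblast marker sum, these calls also held and the median was 0.70. Without optimized replicate 2 the median was 0.50 and Capg was also called lower, and with library size alone the median was 0.56. The part of these differences between libraries in the results was not tested.

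Together the 7 genes took 1.62%, 1.61% and 1.81% of all counts in control replicates 1 to 3, against 3.57%, 4.02% and 4.06% in optimized replicates 1 to 3. The mean share was 1.68% ± 0.112 in control and 3.88% ± 0.270 in optimized libraries (± SD, n = 3 per group), a difference of 2.20 percentage points with p = 0.1 by exact permutation (two-sided). Spp1 alone took 0.802%, 0.765% and 0.903% in control and 2.30%, 2.54% and 2.68% in optimized libraries. Gpnmb took 0.516%, 0.517% and 0.551% in control and 0.960%, 1.08% and 1.00% in optimized libraries. Without Spp1, the other 6 genes went from 0.857% to 1.38%. A share of counts is not corrected for length, and the same sum over FPKM values was 1.91% in control and 4.49% in optimized cultures.

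**Figure D3:**
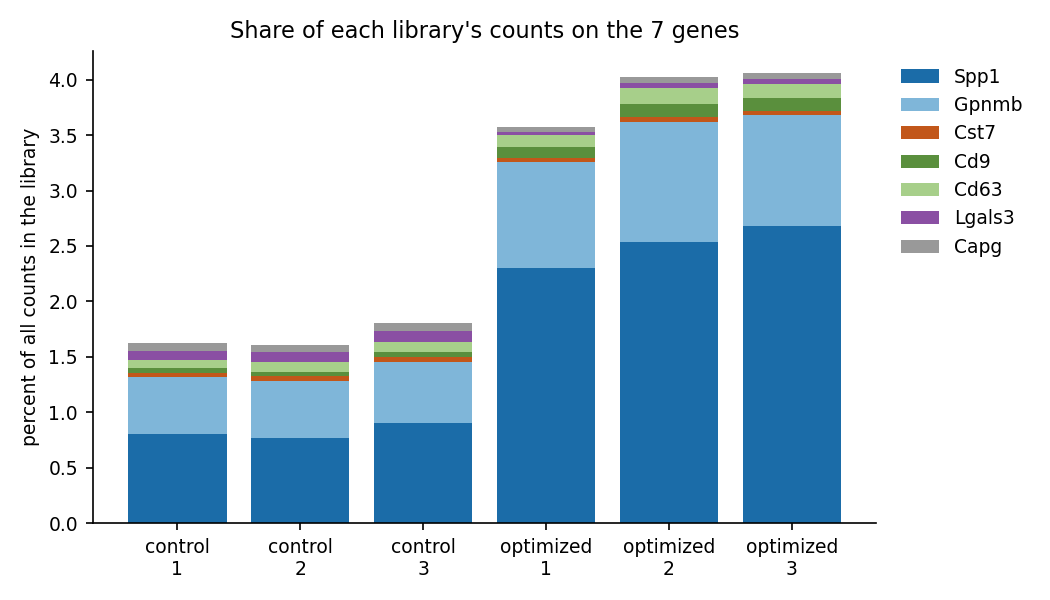
Percent of all counts in each library that fell on the 7 genes, stacked by gene, for control and optimized replicates 1 to 3. The bars reach 1.61% to 1.81% in control and 3.57% to 4.06% in optimized libraries, and Spp1 and Gpnmb make up most of each bar.

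Compared per length, the order of the 7 genes in control cultures was Spp1 (4826 ± 411 FPKM), Gpnmb (1342 ± 50.1), Lgals3 (626 ± 60.2), Cd63 (584 ± 48.5), Cst7 (407 ± 43.7), Cd9 (357 ± 22.7) and Capg (344 ± 19.1), given as mean ± SD (n = 3). Of the neighbours in this order, Lgals3 and Cd63, Cst7 and Cd9, and Cd9 and Capg had overlapping values. In optimized cultures the order was Spp1 (14620 ± 1556 FPKM), Gpnmb (2565 ± 215), Cd9 (906 ± 96.9), Cd63 (857 ± 170), Cst7 (386 ± 63.1), Lgals3 (276 ± 39.2) and Capg (245 ± 37.5), where Cd9 and Cd63, and Lgals3 and Capg, overlapped. Cd9 thus moved from the sixth to the third place and Lgals3 from the third to the sixth. The coefficient of variation of the CPM values between libraries was 7.50% to 13.8% in control and 12.5% to 23.9% in optimized cultures, highest for Cd63 in the latter.

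**Figure D4:**
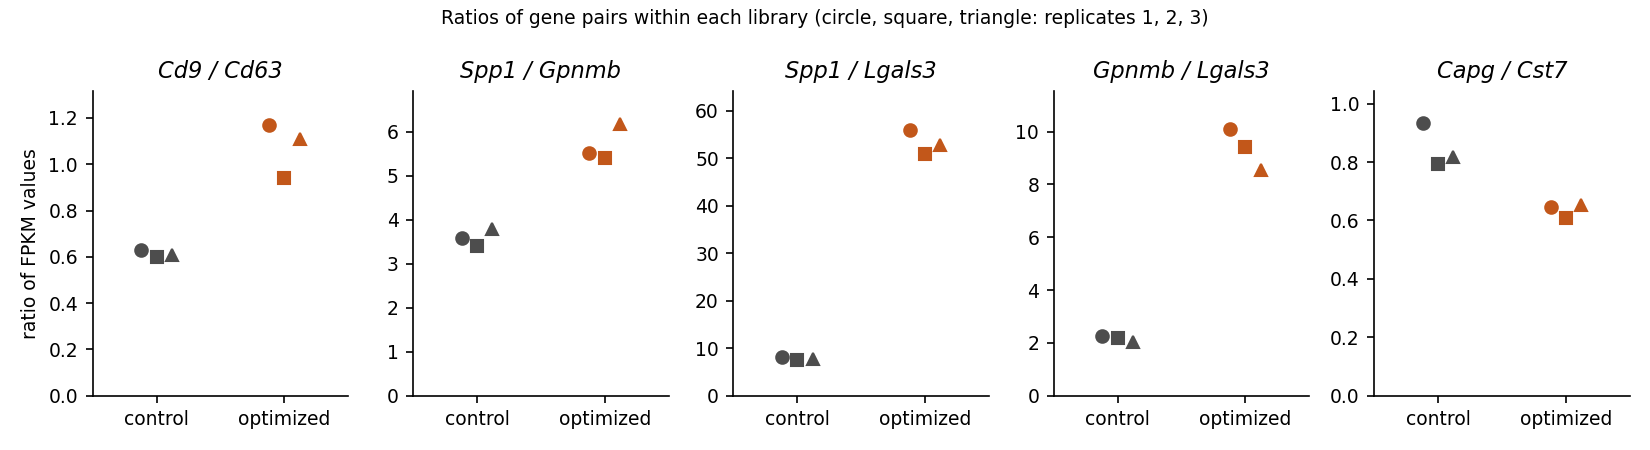
Ratios of the FPKM values of gene pairs within each library, control (grey) and optimized (orange), with a symbol for each replicate. The groups do not overlap for any of the 5 pairs, and Spp1 over Lgals3 shows the largest gap, with 7.41 to 8.12 against 51.0 to 56.0.

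Gapdh and Ywhaz, the reference genes of the study's RT-qPCR, gave a scale that does not depend on the library factors. Gapdh itself overlapped between the groups and had a log2 fold change of 0.43 (adjusted p = 0.038 by edgeR's quasi-likelihood test). It lost this call with library size alone (0.061), with limma (0.12), and when single libraries were left out, with 0.15 and 0.14 for control replicates 1 and 2 and 0.099 and 0.12 for optimized replicates 2 and 3. Ywhaz had a log2 fold change of 0.12 (adjusted p = 0.33), and of -0.01 with library size alone. As a ratio to Ywhaz, Spp1 was 3.08-fold, Cd9 2.58-fold, Gpnmb 1.94-fold and Cd63 1.48-fold the control level. Capg was 0.720 times and Lgals3 0.446 times that level, all compared as geometric means. The ratio of Cd63 to Ywhaz overlapped between the groups (p = 0.2), that of Cst7 was 0.958 times control (p = 0.8), and the other 5 had p = 0.1 (two-sided exact permutation tests). Against Gapdh, Spp1 was 2.50-fold and Cd63 1.20-fold the control geometric mean, while Cst7 was 0.779 times it with every optimized library below every control library. Adjusted over all 21 ratios to a reference gene, the lowest p-value was 0.117.

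The genes whose log2 CPM over the 6 libraries was most like that of each member were picked out of 9829 genes with a mean of at least 5 CPM. For Spp1 these were Gna15, Rgs16 and Pdia3 (Pearson r 0.9996, 0.9989 and 0.9987), and for Gpnmb they were Cd81, Tmem37 and Haus8 (r 0.9993, 0.9993 and 0.9990). Cd9 was most like Ucp2, Tpp1 and Pxdc1 (r 0.9996 to 0.9994), and Cd63 most like Sumf2, Ssr4 and Gng5 (r 0.9975 to 0.9967). Lgals3 was matched by Dpf2, Anxa7 and Litaf (r 0.9990 to 0.9987), Capg by Rhoc, Bax and Mrps6 (r 0.9995 to 0.9972), and Cst7 by Rps7, Med30 and Rpl11 (r 0.9963 to 0.9908). The 6 points are the same libraries for all genes and fall into 2 conditions, so coefficients of this size are a description and were not tested.

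The tetraspanin family showed no common direction. Of the 29 listed tetraspanins other than Cd9 and Cd63, 20 could be tested, with a median log2 fold change of 0.14. Of these, 5 were higher, 3 were lower and 12 did not pass, beside 14.7% higher and 15.2% lower over all genes tested. Tspan9 rose from 5.46 ± 1.19 to 14.6 ± 1.49 CPM and Tspan7 from 19.6 ± 2.73 to 50.6 ± 6.32 CPM (± SD, n = 3 per group), with log2 fold changes of 1.42 and 1.37. Cd81, a widely expressed partner of Cd9, had a log2 fold change of 1.22 and rose from 219 ± 15.8 to 510 ± 76.1 CPM. Tspan33 fell from 19.6 ± 1.97 to 6.09 ± 1.86 CPM with a log2 fold change of -1.68, and Tspan13 and Cd82 fell with -0.92 and -0.64. Cd53, the most abundant of those that did not pass, had 472 ± 52.3 and 439 ± 38.6 CPM and overlapped.

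Among 8 tested binding partners of tetraspanins, the median log2 fold change was 0.28. Of these, edgeR called 3 higher and 0 lower, against 14.7% and 15.2% of all genes tested. At an unadjusted p-value under 0.05, Itgb1 was lower, and DESeq2 called 0 lower. Other settings did call partners lower, with 3 for library size alone and 2 with the length trend removed. The 3 limma settings called 2, 2 and 3 lower, and 1 was called lower without optimized replicate 1. Ptgfrn, which binds Cd9 and Cd81 directly, rose from 36.8 ± 1.54 to 106 ± 3.08 CPM (log2 fold change 1.52). Adam10, a sheddase whose traffic depends on tetraspanins, rose from 144 ± 7.90 to 276 ± 16.1 CPM (log2 fold change 0.94), and Itga6 had one of 0.62. Sdcbp, which encodes syntenin, a partner of Cd63 in exosome formation, had 1133 ± 102 and 996 ± 78.0 CPM and was not called.

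Receptors of osteopontin went both ways. Of 9 tested, 4 were higher, 3 were lower and 2 were not called, with a median of -0.19. Over all genes tested, 14.7% were higher and 15.2% lower. Itgb5, the β5 chain that pairs with αv, rose from 278 ± 6.33 to 2383 ± 318 CPM, a log2 fold change of 3.10 (SE 0.12, adjusted p = 1.5e-07 by edgeR's quasi-likelihood test). Its partner Itgav rose from 112 ± 8.72 to 269 ± 55.3 CPM (log2 fold change 1.26). Itga9 and Itga4, the α9 and α4 chains, fell from 37.0 ± 4.80 to 9.33 ± 2.51 CPM and from 100.4 ± 12.5 to 27.1 ± 6.56 CPM, with log2 fold changes of -1.99 and -1.89. Cd44, which galectin-3 also binds, fell from 216 ± 10.2 to 149 ± 8.44 CPM, a log2 fold change of -0.54.

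Cst7 was also set beside other cystatins and the proteases that cystatin F binds. Only Cst3 and Cstb of the 15 other listed cystatins had enough counts. Neither was called by edgeR with TMM factors or by DESeq2 or had an unadjusted p-value under 0.05, with log2 fold changes of 0.36 and -0.42 and overlapping libraries. These were near the threshold, since 1 cystatin was called lower with library size alone, with no filter, with the replicate block, with the length trend removed, with limma and without optimized replicate 2, and 1 was called higher with the length trend removed and without optimized replicate 1. Of 4 target proteases, 3 were higher and 1 was lower, against 14.7% and 15.2% of all genes tested, with a median of 1.04. Ctsh rose from 244 ± 18.9 to 786 ± 140 CPM (log2 fold change 1.69), Ctsl from 847 ± 91.2 to 2165 ± 404 CPM (1.35) and Lgmn had a log2 fold change of 0.72. Ctsc, which encodes cathepsin C, fell from 773 ± 50.4 to 503 ± 44.4 CPM, a log2 fold change of -0.62.

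Of the other galectins, 4 could be tested, with 1 called lower and 0 higher, against 15.2% and 14.7% of all genes tested. Lgals8 was called lower with a log2 fold change of -0.25 (adjusted p = 0.036 by edgeR's quasi-likelihood test), but lost the call when any control library or optimized replicate 2 or 3 was left out and with no filter on low counts, with adjusted p-values from 0.057 to 0.13. Lgals1 and Lgals9, at 168 ± 26.8 and 201 ± 19.4 CPM in control and 165 ± 46.6 and 234 ± 29.0 CPM in optimized cultures, overlapped. Among 8 proteins that galectin-3 is known to bind, the median log2 fold change was 0.12. Of their transcripts, 3 were higher and 2 lower, against 14.7% and 15.2% of all genes tested. The number called higher was 1 without control replicate 1, without control replicate 2 and with limma on log2(FPKM + 1). Trem2, the receptor through which part of the disease-associated profile runs, rose from 623 ± 53.3 to 1031 ± 283 CPM (log2 fold change 0.73, adjusted p = 0.013 by edgeR's quasi-likelihood test), with adjusted p-values of 0.063 and 0.067 without control replicate 1 or 2 and 0.054 by limma on log2(FPKM + 1). Mertk, a receptor for uptake of apoptotic cells, had a log2 fold change of 0.63, and Tlr4 one of -0.88.

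Gpnmb is a known target of the MiT transcription factors. The list held these factors, the Gpnmb relative Pmel, and Sdc4, Atp6v1h and Mcoln1. Of its 8 genes, 6 were lower and 0 higher by edgeR, with a median of -0.42, and Pmel was not among the 6. Over all genes tested, 15.2% were lower and 14.7% higher. DESeq2 also called 6 lower and 0 higher, and 0 were higher at an unadjusted p-value under 0.05. Tfec fell from 27.9 ± 0.374 to 10.3 ± 0.935 CPM (log2 fold change -1.43), Mitf from 97.0 ± 9.50 to 70.1 ± 10.1 CPM (-0.47), and Tfeb and Tfe3 had log2 fold changes of -0.37 and -0.26. Sdc4, a syndecan that binds Gpnmb, fell from 127 ± 5.25 to 47.1 ± 1.46 CPM (-1.44). Atp6v1h was also called lower (-0.46), while Pmel and Mcoln1 were not called (-0.20 and 0.20). With control replicate 1 or 2 left out, or optimized replicate 3, the number called lower was 3.

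Of the gelsolin family, to which Capg belongs, 5 other genes could be tested. Of these, 2 were called higher and 1 lower, against 14.7% and 15.2% of all genes tested. Flii was lower, at 256 ± 7.58 and 180 ± 0.529 CPM with a log2 fold change of -0.51, and Gsn, at 445 ± 21.0 and 398 ± 29.8 CPM, was not called. Vil1 and Vill were called higher at a mean of 0.966 and 1.29 CPM in optimized cultures, and both lost the call without control replicate 1 (adjusted p = 0.056 and 0.074 by edgeR's quasi-likelihood test). Vill also lost it without control replicate 2 (0.088) and without optimized replicate 1 (0.064).

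**Figure D5:**
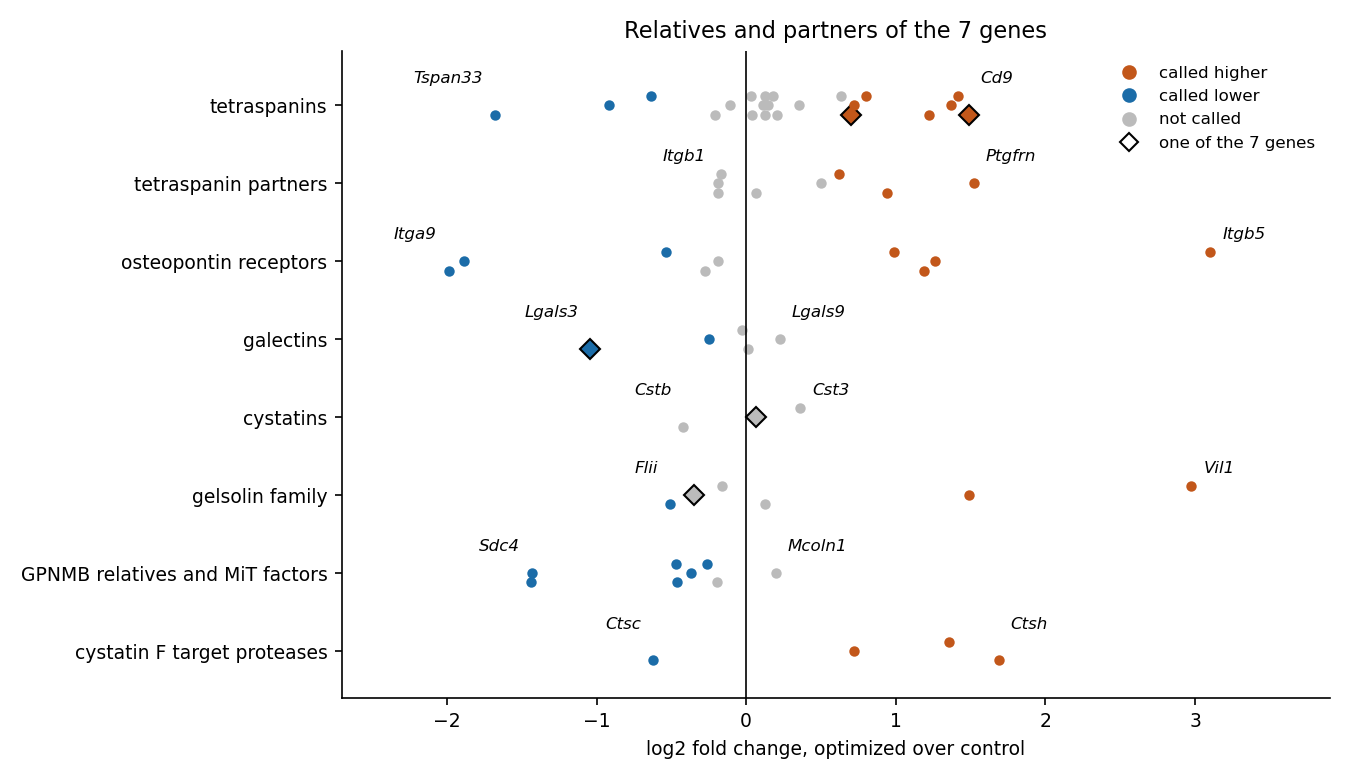
Log2 fold change, optimized over control, of tested relatives and partners of the 7 genes, a row for each list, coloured by call at an adjusted p-value under 0.05, with diamonds for the 7 genes and names for the lowest and highest of each row. Tetraspanins span -1.68 to 1.49 and osteopontin receptors -1.99 to 3.10. The row labelled GPNMB relatives and MiT factors, which also holds Sdc4, Atp6v1h and Mcoln1, has no gene called higher.

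The rest of the disease-associated profile also went both ways. Of 35 other genes of the profile, all tested, 15 were higher and 10 lower, beside 14.7% and 15.2% of all genes tested. Their log2 fold changes had a median of 0.34 and a range from -2.22 to 2.74. Ch25h, a cholesterol hydroxylase, and Serpine2, a secreted protease inhibitor, had the highest values, from 35.1 ± 4.03 to 235 ± 26.4 CPM and from 91.8 ± 7.12 to 576 ± 92.6 CPM. Ccl6, a chemokine, and Lpl, lipoprotein lipase, had the lowest, with falls from 308 ± 24.0 to 66.1 ± 15.9 CPM and from 4891 ± 153 to 1671 ± 157 CPM. Serpine2 is also in the homeostatic microglia gene set used by the study, which reports it as upregulated there. Whether the 7 genes differ from these 35 was not tested.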

How the data were processed

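RNA from 6 libraries, 3 per condition, was sequenced with paired ends. The processing notes of the submitters name HISAT2, featureCounts and mm39, and per the study's methods the authors ran both tools in Galaxy. They deposited raw counts per gene, without normalization, and FPKM values for the same 41079 symbols. Versions, annotation, strand setting and the treatment of reads on several genes are not given in the sources used here. Conditions, replicate numbers and columns came from the labels, and 0 columns belonged to other samples. A marker gene of the monocyte list is not reported here and was left out of its sum.

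Counts were fitted with edgeR 4.0.16 in R 4.3.3 (filterByExpr, TMM factors, quasi-likelihood test, condition as the only term), and p-values of the 14618 genes were adjusted by Benjamini-Hochberg, with calls at 0.05. The common dispersion was 0.016, a coefficient of variation of 0.13 between replicates. A standard error is the log2 fold change divided by the square root of F. The steps were tested on simulated data in which most genes were unchanged and rises and falls were drawn evenly. That setting does not test the choice of scaling. The members and all gene lists were chosen with earlier results of these data known, so list counts are descriptions. Ratios and shares were compared by exact permutation, two-sided, with adjustment over the 21 ratios to Gapdh, Ywhaz or both.

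The rule named all 7 members, Gapdh, Ywhaz, up to 4 called genes with the lowest and highest log2 fold changes per list, and the 3 most alike genes per member (log2 CPM with a prior count of 2, predicted genes left out). Other list genes were named after their values were seen. Replicates of a condition differed by more than counting noise, so none was counted as a copy. As alternatives, TMM was replaced by relative log expression factors or by library size alone, edgeR by DESeq2 1.42.0, and the filter by none or by a minimum of 10 counts per library. The replicate number was added as a block, a gene length trend was removed (loess, span 0.3), and each library was left out in turn. In limma 3.58.1, log2(FPKM + 1), log2(FPKM + 0.1) and a minimum mean FPKM of 1 were used, a scale that understates changes of low genes. Of the 41079 symbols, 35087 were found in GENCODE M39. All 7 members had RefSeq promoter windows on GRCm39. Figures were drawn with matplotlib 3.10.9.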

Additional observations from a re-analysis of the deposited data

How the results depend on the processing

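Each member was refitted under 16 alternatives. Spp1, Gpnmb, Cd9 and Lgals3 kept their direction and their call in all 16, with log2 fold changes of 1.60 to 1.84, 0.93 to 1.16, 1.34 to 1.59 and -1.19 to -0.91. Cd63 kept both in 14 (0.50 to 0.86). Of the 7 genes, 2 were called lower, Capg beside Lgals3, with library size alone, no filter, the replicate block, the length trend removed, each of the 3 limma settings and without optimized replicate 2, and leaving out single libraries gave 1 to 2 genes called lower and 3 to 4 called higher. With the replicate block Capg had a log2 fold change of -0.36 (adjusted p = 0.027), 4924 genes were called in place of 4360, and no other member's call changed. Whether the replicate numbers pair the libraries cannot be told from their deviations. Same-numbered libraries had correlations of 0.273, -0.0123 and 0.185, and differently numbered libraries had overlapping values of -0.294 to 0.189. Cst7 turned to -0.072 with library size alone, to -0.0850 with limma on log2(FPKM + 1) with either filter and to -0.0853 on log2(FPKM + 0.1), and leaving out single libraries gave -0.065 to 0.21. Ywhaz turned to -0.0124 with library size alone and to -0.0234, -0.0236 and -0.0234 with the limma settings. Genes called higher numbered 1176 with limma at a mean FPKM of at least 1, where 28.4% of called genes were higher, against 31.1% and 31.3% in the other limma settings, 32.3% with library size alone and 49.1% with TMM. The difference in the members' share moved from 2.20 to 0.522 percentage points without Spp1 and to 2.58 as a share of FPKM. Of 428 refits of the 27 other list genes named by the rule, 415 kept direction and call, 13 lost the call and 0 reversed. Of 320 refitted counts of genes called in the related lists, 39 moved by more than 1.5 times, among them other gelsolin family genes called lower, 2 in place of 1 with library size alone and with limma, and other galectins called higher, 1 in place of 0 with the length trend removed and without optimized replicate 1. Gapdh lost its call in 8 of the 16. The cause of these changes was not tested. Depth limits the rare relatives, such as Vil1 and Tspan8, and not the 7 genes, for which the lowest count was 6850, of Cst7 in optimized replicate 1.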
